A study of Mus musculus with 56 samples.

Results

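Gamma-delta T cell genes are described here in CD4+ T cell cultures that lacked Odc or Dohh and in their WT controls. The genes are Trdc, Tcrg-C1, Tcrg-C2, Tcrg-C4, Cd163l1, Sox13, Zbtb16 and Blk, 8 of the 47937 genes in each count table. They were chosen as a group because such genes were known to be raised in the deficient cultures of this series, although Zbtb16 did not share this pattern. The contrast of deficient with WT is therefore given for them as a description, without a test. All 8 had enough reads to be fitted in both tables.

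CD4+ T cells from spleen and lymph nodes of C57BL/6 mice were polarized in vitro into TH1, TH2, TH17 or Treg cells, and mRNA was sequenced on day 4. Odc encodes ornithine decarboxylase, which makes the polyamine putrescine, and Dohh encodes deoxyhypusine hydroxylase, which completes the amino acid hypusine on the translation factor eIF5A. In Odc flox/flox and Dohh flox/flox mice, Cre recombinase under the Cd4 promoter deletes the gene in cells in which that promoter has been active, and control mice carried no Cre. The Odc table held 16 WT libraries and 15 libraries labelled as knockout, called Odc-/- here, with 4 per group and 3 in Odc-/- TH2 cells. The Dohh table held 12 other WT libraries and 12 Dohh-/- libraries, 3 per group. All cultures were activated with anti-CD3, anti-CD28 and IL-2. TH1 cultures received IL-12 and anti-IL-4, and TH2 cultures received IL-4 and anti-IFN-γ. TH17 cultures received IL-6, TGF-β, IL-1, anti-IL-4 and anti-IFN-γ, and Treg cultures received TGF-β, anti-IL-4 and anti-IFN-γ. The labels describe negative selection of CD4+ T cells and the published methods a selection of naive CD4+ T cells, and neither source lists which lineages were removed. The labels give no ages, the published methods describe the mice of all strains as typically young adults and as littermates, and neither source says whether replicates came from separate mice, so the spread between libraries may be partly technical.

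T cell receptors are pairs of alpha and beta chains or of gamma and delta chains, and each chain joins a variable region, assembled from gene segments, to a constant region. Trdc is the single delta constant region, and the mouse has gamma constant regions Tcrg-C1, Tcrg-C2 and Tcrg-C4 together with Tcrg-C3, which is regarded as a pseudogene. The delta locus lies inside the alpha locus and is lost from a chromosome on which an alpha variable segment joins an alpha J segment, whereas unrearranged or sterile receptor loci can be transcribed without giving a receptor.

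Libraries of the Odc table held 5905374 to 9145214 counts, and those of the Dohh table held 6572148 to 12576933. Levels are given as CPM, counts per 1000000 of the library total after scaling by edgeR's TMM factors, and 3 counts in a library, the upper limit that a count of 0 allows, correspond to 0.310 to 0.498 CPM and 0.226 to 0.473 CPM, which covers counting error only. Odc1, the gene symbol of Odc, stood at 356 to 859 CPM in WT and 423 to 679 CPM in Odc-/- libraries, and Dohh at 31.5 to 45.8 CPM in WT and 45.2 to 148 CPM in Dohh-/- libraries. These counts cover whole genes, including exons outside the deleted part, and therefore do not check the deletions. Cd4 itself ranged from 441 to 1031 CPM in WT and from 272 to 693 CPM in Odc-/- libraries, and from 660 to 968 CPM in WT and from 22.0 to 79.7 CPM in Dohh-/- libraries, so the Dohh-/- cultures were low in the marker that names the cells. A pair of Dohh-/- libraries, TH1 replicate 2 and TH17 replicate 3, had few variable-segment reads of every receptor chain and stood apart from the others, and the TH1 and TH17 differences of the members and the list counts of the Dohh table are given with and without them.

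The constant regions carry most receptor reads in these tables, and the gamma constant regions resemble each other, which limits how reads can be divided between them. The first exons are located, on mm10 with GENCODE annotation of that build, at chr13:19214103-19214432 (plus strand) for Tcrg-C1, chr13:19307222-19307551 (minus strand) for Tcrg-C2, chr13:19260885-19261214 (plus strand) for Tcrg-C3 and chr13:19344558-19344887 (plus strand) for Tcrg-C4. The first exon of Trdc is located at chr14:54142851-54143129 (plus strand). The first 120 bases of each first exon are shown 5′ to 3′ in the direction of transcription, and capitals mark the 17 positions at which the 4 gamma constant regions differ.
Tcrg-C1: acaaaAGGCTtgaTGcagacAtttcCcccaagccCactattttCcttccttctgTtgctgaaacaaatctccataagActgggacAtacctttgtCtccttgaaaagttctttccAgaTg
Tcrg-C2: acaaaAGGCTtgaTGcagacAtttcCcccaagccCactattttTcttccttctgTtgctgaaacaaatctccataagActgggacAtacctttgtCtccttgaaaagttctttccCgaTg
Tcrg-C3: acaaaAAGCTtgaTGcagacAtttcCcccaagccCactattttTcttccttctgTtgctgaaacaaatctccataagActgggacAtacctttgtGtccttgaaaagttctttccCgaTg
Tcrg-C4: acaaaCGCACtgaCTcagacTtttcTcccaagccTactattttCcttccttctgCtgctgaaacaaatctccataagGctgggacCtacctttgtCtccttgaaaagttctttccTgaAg
Trdc: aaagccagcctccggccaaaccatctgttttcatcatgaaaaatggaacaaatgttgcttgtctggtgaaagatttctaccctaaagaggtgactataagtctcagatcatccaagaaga

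Over the whole first exon of 330 bases, Tcrg-C1 and Tcrg-C2 differed at 9 positions (97.3% identical), with a longest identical run of 71 bases, and Tcrg-C1 and Tcrg-C4 differed at 59 positions (82.1% identical). Of all stretches of 50 bases in the annotated transcripts, 34.2% in Tcrg-C1, 25.4% in Tcrg-C2 and 39.5% in Tcrg-C3 also occurred in another gene, whereas none did in Tcrg-C4. Counts of Tcrg-C1, Tcrg-C2 and Tcrg-C3 are therefore uncertain against each other, and the sum of the gamma constant regions is less so. Of the exons of Trdc, 7.84% overlap genes on the other strand, among them Trdv5, and the strand setting of the authors' counting is not given in the sources used here. The other member genes are Cd163l1 (chr7:140218267-140231145), Sox13 (chr1:133382303-133424377), Zbtb16 (chr9:48654297-48836222) and Blk (chr14:63372836-63417037), and none of their exons overlaps another annotated gene.

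Trdc, the delta chain constant region, was higher in every deficient library than in every WT library of the same subset, in both tables. In TH1 cells, Trdc stood at 12.7, 11.7, 15.5 and 23.1 CPM in the WT libraries and at 57.8, 106, 103 and 111 CPM in the Odc-/- libraries. In TH2 cells, Trdc stood at 13.4, 8.39, 17.5 and 14.4 CPM in the WT libraries and at 51.5, 55.5 and 49.2 CPM in the Odc-/- libraries. The lowest Odc-/- value exceeded the highest WT value in both subsets, although Odc-/- TH1 replicate 1 lay below the other TH1 replicates. In TH17 cells, Trdc stood at 19.0, 13.1, 24.3 and 28.9 CPM in the WT libraries and at 147, 238, 254 and 193 CPM in the Odc-/- libraries. In Treg cells, Trdc stood at 9.41, 6.30, 12.8 and 12.2 CPM in the WT libraries and at 199, 234, 221 and 178 CPM in the Odc-/- libraries. The groups stood furthest apart in Treg cells, where WT cells had their lowest levels, and the fitted log2 differences between Odc-/- and WT cells (± SE) were 2.59 ± 0.26 in TH1, 1.95 ± 0.27 in TH2, 3.28 ± 0.26 in TH17 and 4.36 ± 0.28 in Treg cells.

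Trdc was also separate between genotypes in the Dohh table, whose levels were scaled apart from those of the Odc table. In TH1 cells, Trdc stood at 25.1, 25.3 and 22.7 CPM in the WT libraries and at 284, 332 and 592 CPM in the Dohh-/- libraries. In TH2 cells, Trdc stood at 32.6, 23.8 and 19.7 CPM in the WT libraries and at 423, 325 and 281 CPM in the Dohh-/- libraries. No Dohh-/- library came near a WT library of these subsets. In TH17 cells, Trdc stood at 32.9, 26.2 and 21.6 CPM in the WT libraries and at 575, 554 and 427 CPM in the Dohh-/- libraries. In Treg cells, Trdc stood at 29.1, 14.2 and 18.7 CPM in the WT libraries and at 675, 606 and 492 CPM in the Dohh-/- libraries. The groups were again separate, with log2 differences of 4.04 ± 0.30 in TH1, 3.76 ± 0.30 in TH2, 4.27 ± 0.31 in TH17 and 4.83 ± 0.31 in Treg cells. Without the pair of libraries that stood apart, the differences were 4.16 in TH1 and 4.40 in TH17 cells. In these bulk samples, a change in the number of cells of a type and a change in RNA per cell cannot be told apart.

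Tcrg-C1 is the gamma constant region used with variable segments Tcrg-V4 to Tcrg-V7, among them those of gamma-delta T cells that make IL-17. The WT TH1 libraries gave Tcrg-C1 levels of 3.03, 0.995, 2.46 and 5.47 CPM, and the Odc-/- TH1 libraries gave 13.7, 34.5, 36.3 and 43.2 CPM. The WT TH2 libraries gave Tcrg-C1 levels of 1.59, 1.33, 1.87 and 2.77 CPM, and the Odc-/- TH2 libraries gave 9.40, 9.16 and 7.61 CPM. The TH2 values of Odc-/- cells were the lowest of the deficient groups, and no WT value of TH1 or TH2 cells reached them. The WT TH17 libraries gave Tcrg-C1 levels of 3.82, 2.10, 4.29 and 8.01 CPM, and the Odc-/- TH17 libraries gave 33.3, 77.6, 84.1 and 64.3 CPM. The WT Treg libraries gave Tcrg-C1 levels of 1.69, 0.929, 2.07 and 3.03 CPM, and the Odc-/- Treg libraries gave 74.9, 84.5, 108 and 68.2 CPM. WT and Odc-/- libraries did not overlap in TH17 or Treg cells, and Odc-/- TH17 replicate 1 was the lowest of its group. The log2 differences of Tcrg-C1 were 3.42 ± 0.41 in TH1, 2.21 ± 0.49 in TH2, 3.82 ± 0.38 in TH17 and 5.45 ± 0.42 in Treg cells.

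For Tcrg-C1 in TH1 cells, the WT values were 4.30, 4.18 and 4.71 CPM and the Dohh-/- values 68.6, 83.1 and 93.9 CPM. For Tcrg-C1 in TH2 cells, the WT values were 5.51, 1.90 and 2.35 CPM and the Dohh-/- values 65.4, 69.4 and 66.9 CPM. Deficient and WT libraries lay far apart, and Dohh-/- TH2 libraries differed little among themselves. For Tcrg-C1 in TH17 cells, the WT values were 7.26, 5.07 and 6.58 CPM and the Dohh-/- values 144, 151 and 144 CPM. For Tcrg-C1 in Treg cells, the WT values were 6.92, 2.79 and 3.58 CPM and the Dohh-/- values 197, 166 and 176 CPM. The highest WT value of any subset was well below the lowest Dohh-/- value. Among the Dohh cultures, the log2 differences of Tcrg-C1 came to 4.22 ± 0.30, 4.33 ± 0.30, 4.53 ± 0.29 and 5.31 ± 0.31 in TH1, TH2, TH17 and Treg cells, and to 4.20 in TH1 and 4.56 in TH17 cells without the pair of libraries that stood apart.

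Tcrg-C2 is the gamma constant region of the cluster on the minus strand and had the highest median level per length of the members. The WT TH1 libraries gave Tcrg-C2 levels of 8.08, 5.83, 9.13 and 19.5 CPM, and the Odc-/- TH1 libraries gave 36.5, 113, 94.7 and 116 CPM. The WT TH2 libraries gave Tcrg-C2 levels of 5.50, 3.33, 7.21 and 8.59 CPM, and the Odc-/- TH2 libraries gave 37.3, 41.9 and 37.9 CPM. WT replicate 4 was the highest WT library in both subsets, and it stayed below every Odc-/- library. The WT TH17 libraries gave Tcrg-C2 levels of 7.76, 4.79, 8.92 and 20.5 CPM, and the Odc-/- TH17 libraries gave 74.3, 159, 162 and 138 CPM. The WT Treg libraries gave Tcrg-C2 levels of 9.73, 7.64, 11.0 and 17.3 CPM, and the Odc-/- Treg libraries gave 154, 173, 207 and 145 CPM. WT replicate 4 was again the highest WT library, and again no WT value reached an Odc-/- value. The log2 differences of Tcrg-C2 were 3.09 ± 0.41 in TH1, 2.67 ± 0.44 in TH2, 3.66 ± 0.41 in TH17 and 3.90 ± 0.41 in Treg cells.

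For Tcrg-C2 in TH1 cells, the WT values were 11.4, 9.46 and 9.19 CPM and the Dohh-/- values 209, 208 and 177 CPM. For Tcrg-C2 in TH2 cells, the WT values were 12.8, 10.0 and 9.63 CPM and the Dohh-/- values 214, 221 and 209.8 CPM. Every Dohh-/- value of both subsets lay between 177 and 221 CPM, above all WT values. For Tcrg-C2 in TH17 cells, the WT values were 10.6, 9.07 and 5.77 CPM and the Dohh-/- values 199.6, 196 and 144 CPM. For Tcrg-C2 in Treg cells, the WT values were 9.85, 4.62 and 5.71 CPM and the Dohh-/- values 383, 406 and 389 CPM. Dohh-/- Treg cells had the highest levels of this gene in the Dohh table. Among the Dohh cultures, the log2 differences of Tcrg-C2 came to 4.30 ± 0.24, 4.30 ± 0.24, 4.39 ± 0.24 and 5.84 ± 0.26 in TH1, TH2, TH17 and Treg cells, and to 4.26 in TH1 and 4.54 in TH17 cells without the pair of libraries that stood apart.

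Tcrg-C4 is the gamma constant region used with Tcrg-V1, a segment of many gamma-delta T cells in spleen and lymph nodes. The WT TH1 libraries gave Tcrg-C4 levels of 3.75, 3.13, 3.19 and 9.46 CPM, and the Odc-/- TH1 libraries gave 22.5, 99.7, 73.9 and 89.6 CPM. The WT TH2 libraries gave Tcrg-C4 levels of 2.93, 1.60, 4.00 and 3.20 CPM, and the Odc-/- TH2 libraries gave 33.2, 24.6 and 28.0 CPM. The Odc-/- TH1 library of replicate 1 was the lowest of its group, and the groups did not overlap. The WT TH17 libraries gave Tcrg-C4 levels of 6.26, 4.56, 7.0 and 13.1 CPM, and the Odc-/- TH17 libraries gave 53.5, 143, 114 and 99.6 CPM. The WT Treg libraries gave Tcrg-C4 levels of 4.33, 2.58, 3.57 and 8.26 CPM, and the Odc-/- Treg libraries gave 115, 170.4, 163 and 108 CPM. The WT and Odc-/- groups were separate in TH17 and Treg cells too. The log2 differences of Tcrg-C4 were 3.87 ± 0.45 in TH1, 3.28 ± 0.49 in TH2, 3.73 ± 0.42 in TH17 and 4.90 ± 0.45 in Treg cells.

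For Tcrg-C4 in TH1 cells, the WT values were 6.29, 9.06 and 6.84 CPM and the Dohh-/- values 162, 164 and 164 CPM. For Tcrg-C4 in TH2 cells, the WT values were 6.91, 4.97 and 4.82 CPM and the Dohh-/- values 115, 121 and 133 CPM. The Dohh-/- TH1 libraries were nearly equal, and none overlapped WT. For Tcrg-C4 in TH17 cells, the WT values were 8.71, 6.82 and 7.16 CPM and the Dohh-/- values 198, 179 and 111 CPM. For Tcrg-C4 in Treg cells, the WT values were 7.59, 5.47 and 3.58 CPM and the Dohh-/- values 277, 291 and 305 CPM. Dohh-/- TH17 replicate 3, a library that stood apart, was the lowest of its group and still above WT. Among the Dohh cultures, the log2 differences of Tcrg-C4 came to 4.46 ± 0.25, 4.45 ± 0.25, 4.42 ± 0.25 and 5.70 ± 0.26 in TH1, TH2, TH17 and Treg cells, and to 4.46 in TH1 and 4.64 in TH17 cells without the pair of libraries that stood apart.

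**Figure D1:**
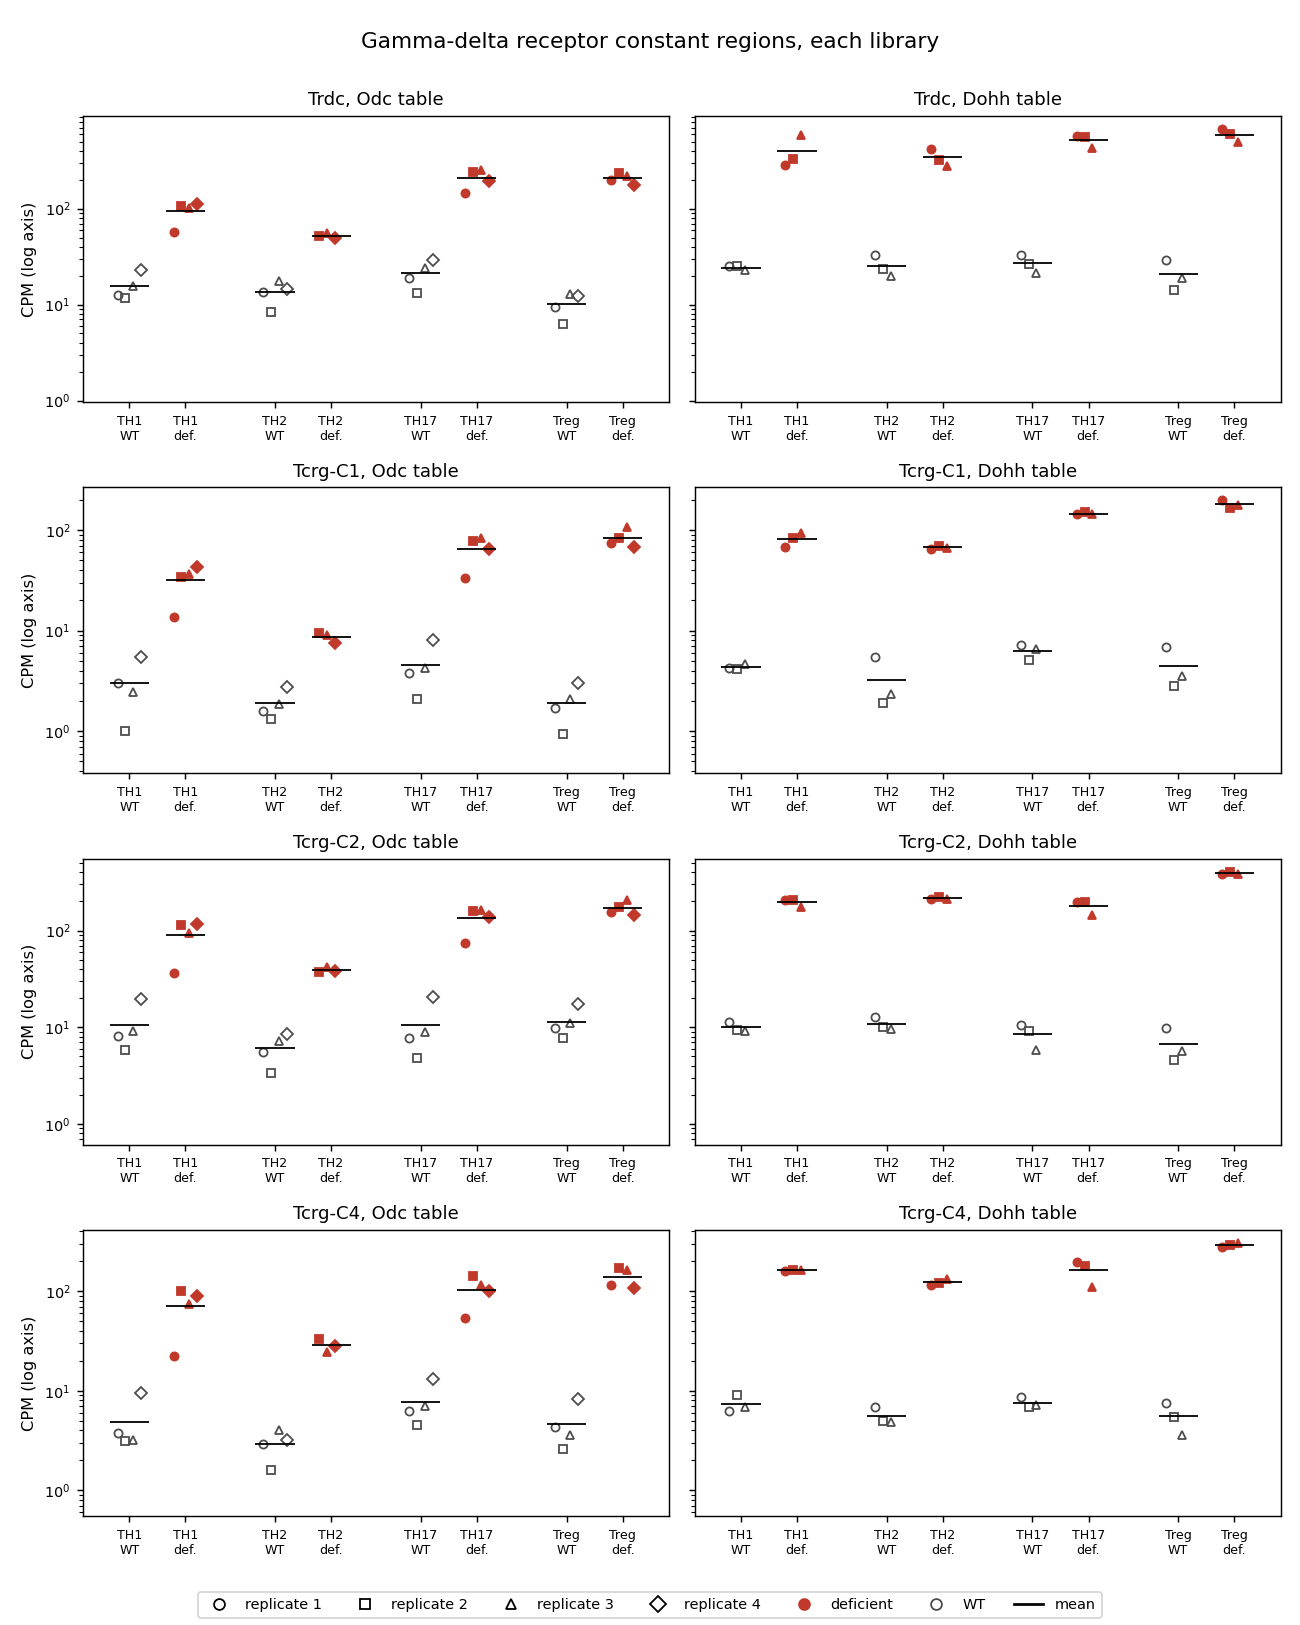
CPM on a log axis (y) of Trdc, Tcrg-C1, Tcrg-C2 and Tcrg-C4 in each library, by subset and genotype (x, def. = deficient), with the Odc table on the left and the Dohh table on the right, marker shape for the replicate number and a bar at the group mean. Filled deficient points lie above all open WT points of the same subset in every panel, and Trdc in Dohh-/- Treg cells runs from 492 to 675 CPM against 14.2 to 29.1 CPM in WT.

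The balance between the gamma constant regions also differed in some groups. Of the reads on Tcrg-C1, Tcrg-C2 and Tcrg-C4 together, Tcrg-C2 held 60.6 to 68.5% in WT Treg cells of the Odc table and 40.5 to 45.2% in Odc-/- Treg cells, so the groups did not overlap. Tcrg-C1 held 8.33 to 12.4% in these WT libraries and 19.7 to 22.5% in the Odc-/- libraries. Within the Dohh table, the share of Tcrg-C2 in Treg cells moved the other way, from 35.8 to 44.4% in WT to 44.7 to 47.0% in Dohh-/- libraries. In TH1 cells the share of Tcrg-C2 was also separate in the Odc table, at 54.4 to 61.8% in WT and 45.7 to 50.2% in Odc-/- libraries. It overlapped in TH2 cells, at 53.2 to 59.0% and 46.7 to 55.4%, and in TH17 cells, at 41.8 to 49.3% and 41.9 to 46.1%. In TH1, TH2 and TH17 cells of the Dohh table it overlapped as well. The share of Tcrg-C1 was lower in Odc-/- TH2 cells, at 10.4 to 12.1% against 14.3 to 21.3% in WT. It overlapped in TH1 and TH17 cells of the Odc table and in every subset of the Dohh table. The shift of the share in Treg cells was thus not shared by both tables, and shares of Tcrg-C1 and Tcrg-C2 carry the uncertainty of their common sequence.

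Trdc was also set against Trac, the constant region of the alpha chain, within each library. Per 100 Trac reads, WT cells of the Odc table had 2.99 to 6.46 Trdc reads in TH1, 2.54 to 5.25 in TH2, 2.95 to 7.92 in TH17 and 1.35 to 2.91 in Treg cells. Odc-/- cells had 19.3 to 56.1, 29.0 to 37.7, 35.4 to 90.3 and 68.8 to 116 in the same order. Trdc thus approached or exceeded Trac in number of reads in several Odc-/- Treg and TH17 libraries. In Dohh-/- cells the ratio was 324 to 367 in TH1, 343 to 440.5 in TH2, 341 to 530.0 in TH17 and 555 to 687 in Treg cells, against 2.83 to 10.7 over all WT libraries of that table. Every Dohh-/- library therefore held more Trdc than Trac reads, which is a ratio of reads and is not corrected for gene length. Across libraries of all 4 subsets within a genotype, Pearson's r of Trdc with Trac on log2(CPM + 1) was -0.22 over 16 WT and 0.55 over 15 Odc-/- libraries, and -0.17 over 12 WT and 0.65 over 12 Dohh-/- libraries (0.69 over 10 without the pair that stood apart), where the points of a subset share culture conditions.

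**Figure D2:**
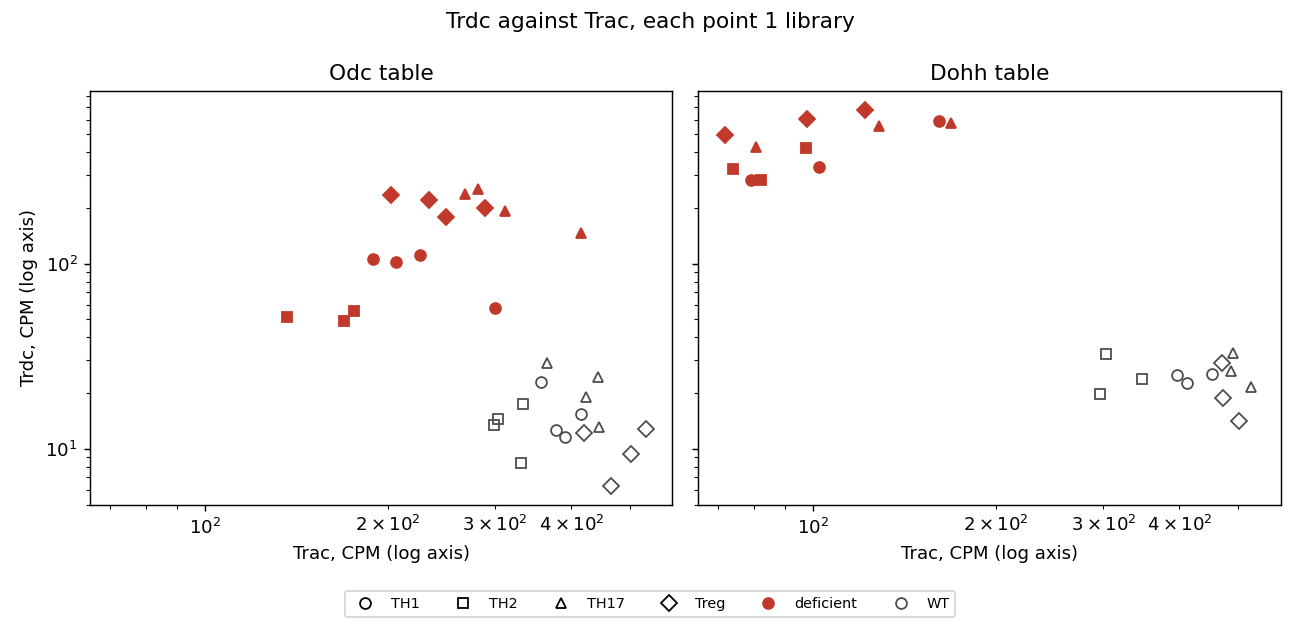
Trdc against Trac, both in CPM on log axes, 1 point per library, with the Odc table on the left and the Dohh table on the right, marker shape for the subset and filled points for deficient libraries. Deficient libraries lie above WT in Trdc in both tables, and in the Dohh table they also lie below WT in Trac, at 71.7 to 169 CPM against 296 to 523 CPM.

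Cd163l1 encodes Scart1, a scavenger receptor found on gamma-delta T cells, and was higher in every deficient library than in every WT library of the same subset. In TH1 cells, Cd163l1 stood at 2.02, 0.568, 1.16 and 0.444 CPM in the WT libraries and at 4.07, 4.10, 7.59 and 5.45 CPM in the Odc-/- libraries. In TH2 cells, Cd163l1 stood at 0.245, 0.133, 0 and 0.291 CPM in the WT libraries and at 0.529, 1.78 and 0.516 CPM in the Odc-/- libraries. WT TH2 libraries held fewer than 3 reads each, and the Odc-/- values exceeded them in both subsets. In TH17 cells, Cd163l1 stood at 1.39, 0.819, 1.24 and 1.86 CPM in the WT libraries and at 9.42, 9.06, 21.3 and 10.1 CPM in the Odc-/- libraries. In Treg cells, Cd163l1 stood at 0, 0, 0 and 0 CPM in the WT libraries and at 0.792, 0.842, 2.46 and 0.651 CPM in the Odc-/- libraries. Every WT Treg library had 0 reads, and Odc-/- replicate 3 was the highest of its group in all 4 subsets. The log2 differences were 2.32 ± 0.47 in TH1 and 3.21 ± 0.43 in TH17 cells. In TH2 cells the ratio of summed counts was 5.71-fold (2.11 to 19.3), with an exact 95% interval for counting error, and in Treg cells the level was at least 3.59-fold higher than a floor of 3 counts per WT library.

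In TH1 cells, Cd163l1 stood at 0.496, 0.498 and 1.01 CPM in the WT libraries and at 32.2, 23.2 and 61.7 CPM in the Dohh-/- libraries. In TH2 cells, Cd163l1 stood at 0.329, 0.211 and 0.224 CPM in the WT libraries and at 12.2, 7.84 and 27.9 CPM in the Dohh-/- libraries. Dohh-/- replicate 3 was the highest library in both subsets, and all Dohh-/- values exceeded WT. In TH17 cells, Cd163l1 stood at 0.968, 0.195 and 0.692 CPM in the WT libraries and at 35.4, 23.5 and 85.4 CPM in the Dohh-/- libraries. In Treg cells, Cd163l1 stood at 0, 0 and 0 CPM in the WT libraries and at 11.9, 7.87 and 16.7 CPM in the Dohh-/- libraries. Dohh-/- replicate 3 was again the highest, and in TH17 cells this is a library that stood apart. Fitted log2 differences came to 5.88 ± 0.66 in TH1 and 6.22 ± 0.67 in TH17 cells, and 6.14 and 5.52 without the pair of libraries. The ratio of summed counts in TH2 cells was 60.5-fold (30.4 to 141), and in Treg cells the level was at least 43.1-fold higher than the floor of 3 counts per WT library.

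Sox13 encodes a transcription factor of gamma-delta T cells that make IL-17, and its level was low in the Odc table. The WT TH1 libraries gave Sox13 levels of 0.289, 0.568, 1.01 and 1.92 CPM, and the Odc-/- TH1 libraries gave 0.151, 1.45, 1.12 and 1.26 CPM. The WT TH2 libraries gave Sox13 levels of 0.489, 0.400, 0.400 and 1.02 CPM, and the Odc-/- TH2 libraries gave 1.85, 0.891 and 2.06 CPM. The groups overlapped in both subsets. The WT TH17 libraries gave Sox13 levels of 0, 0, 0.113 and 0.464 CPM, and the Odc-/- TH17 libraries gave 1.19, 1.58, 1.5 and 1.69 CPM. The WT Treg libraries gave Sox13 levels of 0.106, 0.206, 0 and 0 CPM, and the Odc-/- Treg libraries gave 0.660, 0.481, 0.517 and 0.651 CPM. All Odc-/- values lay above all WT values in TH17 and Treg cells, where WT libraries held few reads or none. The log2 differences were 0.10 ± 0.55 in TH1 and 1.47 ± 0.59 in TH2 cells, and the ratios of summed counts were 10.3-fold (4.10 to 33.4) in TH17 and 6.98-fold (2.04 to 37.0) in Treg cells.

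The WT TH1 libraries gave Sox13 levels of 0.827, 1.59 and 0.560 CPM, and the Dohh-/- TH1 libraries gave 4.39, 3.15 and 11.2 CPM. The WT TH2 libraries gave Sox13 levels of 1.23, 0.634 and 0.672 CPM, and the Dohh-/- TH2 libraries gave 12.6, 8.04 and 13.1 CPM. The Dohh-/- libraries were above WT, and TH1 replicate 3 was the highest of its group. The WT TH17 libraries gave Sox13 levels of 1.77, 0.292 and 0.231 CPM, and the Dohh-/- TH17 libraries gave 12, 8.75 and 10.9 CPM. The WT Treg libraries gave Sox13 levels of 0.526, 0 and 0.0852 CPM, and the Dohh-/- Treg libraries gave 7.07, 4.44 and 6.39 CPM. The groups were separate in these subsets too, so that Sox13 did not overlap between genotypes in any subset of the Dohh table. Fitted log2 differences came to 2.65 ± 0.62 in TH1, 3.68 ± 0.63 in TH2 and 3.67 ± 0.63 in TH17 cells, and the ratio of summed counts in Treg cells was 24.7-fold (12.2 to 58.0). Without the pair of libraries, the Sox13 difference was 2.94 in TH1 and 3.65 in TH17 cells.

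Zbtb16 encodes PLZF, a transcription factor of innate-like T cells that is found in some gamma-delta T cells, NKT cells and innate lymphoid cells, and it did not share the pattern of the other genes. For Zbtb16 in TH1 cells, the WT values were 1.15, 0.995, 1.01 and 1.48 CPM and the Odc-/- values 0.754, 0.396, 1.41 and 0.559 CPM. For Zbtb16 in TH2 cells, the WT values were 0.978, 1.07, 0.934 and 0.582 CPM and the Odc-/- values 0, 0.254 and 0.387 CPM. The groups overlapped in TH1 cells, whereas in TH2 cells every Odc-/- library lay below every WT library. For Zbtb16 in TH17 cells, the WT values were 3.13, 1.52, 2.48 and 2.55 CPM and the Odc-/- values 1.33, 0.657, 1.33 and 0.910 CPM. For Zbtb16 in Treg cells, the WT values were 1.37, 0.619, 1.15 and 0.349 CPM and the Odc-/- values 0.528, 0.120, 0.517 and 0.390 CPM. Odc-/- TH17 libraries were also all below WT, and the Treg groups overlapped. The log2 differences were -0.57 ± 0.45 in TH1, -1.20 ± 0.39 in TH17 and -1.15 ± 0.50 in Treg cells, and the ratio of summed counts in TH2 cells was 0.240-fold (0.0722 to 0.633).

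For Zbtb16 in TH1 cells, the WT values were 1.08, 0.0995 and 0.448 CPM and the Dohh-/- values 1.02, 0.315 and 0.331 CPM. For Zbtb16 in TH2 cells, the WT values were 0.329, 0.317 and 0.672 CPM and the Dohh-/- values 0.419, 0.712 and 0.953 CPM. Both groups stayed low and overlapped. For Zbtb16 in TH17 cells, the WT values were 1.45, 0.975 and 0.346 CPM and the Dohh-/- values 0.608, 0.722 and 2.56 CPM. For Zbtb16 in Treg cells, the WT values were 0.226, 0 and 0.341 CPM and the Dohh-/- values 0.442, 0.303 and 0.103 CPM. The highest value belonged to TH17 replicate 3, a library that stood apart, and without it the TH17 difference changed sign from 0.38 to -0.48 on the log2 scale. The other log2 differences were 0.05 ± 0.81 in TH1 cells (0.28 without the pair of libraries) and 0.67 ± 0.81 in TH2 cells, and the ratio of summed counts in Treg cells was 1.33-fold (0.420 to 4.30). The TH1 difference changed sign to -0.74 without Dohh-/- TH1 replicate 1 and to -0.43 without WT TH1 replicate 2.

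Blk encodes a Src family kinase of B cells that is also found in gamma-delta T cells that make IL-17. In TH1 cells, Blk stood at 1.73, 0.284, 1.74 and 3.11 CPM in the WT libraries and at 27.3, 5.42, 5.06 and 4.61 CPM in the Odc-/- libraries. In TH2 cells, Blk stood at 4.52, 0.932, 4.00 and 4.37 CPM in the WT libraries and at 16.1, 21.2 and 16.9 CPM in the Odc-/- libraries. The groups were separate, and Odc-/- TH1 replicate 1 was far above the other TH1 libraries. In TH17 cells, Blk stood at 1.74, 0.117, 1.02 and 0.929 CPM in the WT libraries and at 1.73, 2.76, 3.32 and 3.25 CPM in the Odc-/- libraries. In Treg cells, Blk stood at 0.106, 0.103, 0.115 and 0.233 CPM in the WT libraries and at 12.4, 3.49, 1.03 and 2.34 CPM in the Odc-/- libraries. In TH17 cells a WT library slightly exceeded the lowest Odc-/- library, and in Treg cells the groups were separate. Fitted log2 differences came to 2.61 ± 0.67 in TH1, 2.38 ± 0.63 in TH2 and 1.52 ± 0.77 in TH17 cells, and the ratio of summed counts in Treg cells was 34.7-fold (14.5 to 108). Leaving out Odc-/- TH1 replicate 1 lowered the TH1 difference to 1.53, and leaving out Odc-/- Treg replicate 1 lowered the fitted Treg difference from 4.97 to 3.92.

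In TH1 cells, Blk stood at 0.745, 0.398 and 0.224 CPM in the WT libraries and at 0.817, 0.473 and 2.98 CPM in the Dohh-/- libraries. In TH2 cells, Blk stood at 4.36, 1.80 and 1.68 CPM in the WT libraries and at 4.93, 2.65 and 5.83 CPM in the Dohh-/- libraries. The groups overlapped in both subsets. In TH17 cells, Blk stood at 5.65, 3.31 and 3.12 CPM in the WT libraries and at 14.2, 12.4 and 28.8 CPM in the Dohh-/- libraries. In Treg cells, Blk stood at 0.977, 0.121 and 0.511 CPM in the WT libraries and at 2.98, 1.72 and 5.56 CPM in the Dohh-/- libraries. Dohh-/- libraries lay above WT in TH17 and Treg cells, with replicate 3 the highest in each subset. The log2 differences were 1.60 ± 0.73, 0.75 ± 0.57, 2.18 ± 0.56 and 2.55 ± 0.67 in TH1, TH2, TH17 and Treg cells, and 1.96 in TH1 and 1.73 in TH17 cells without the pair of libraries that stood apart.

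**Figure D3:**
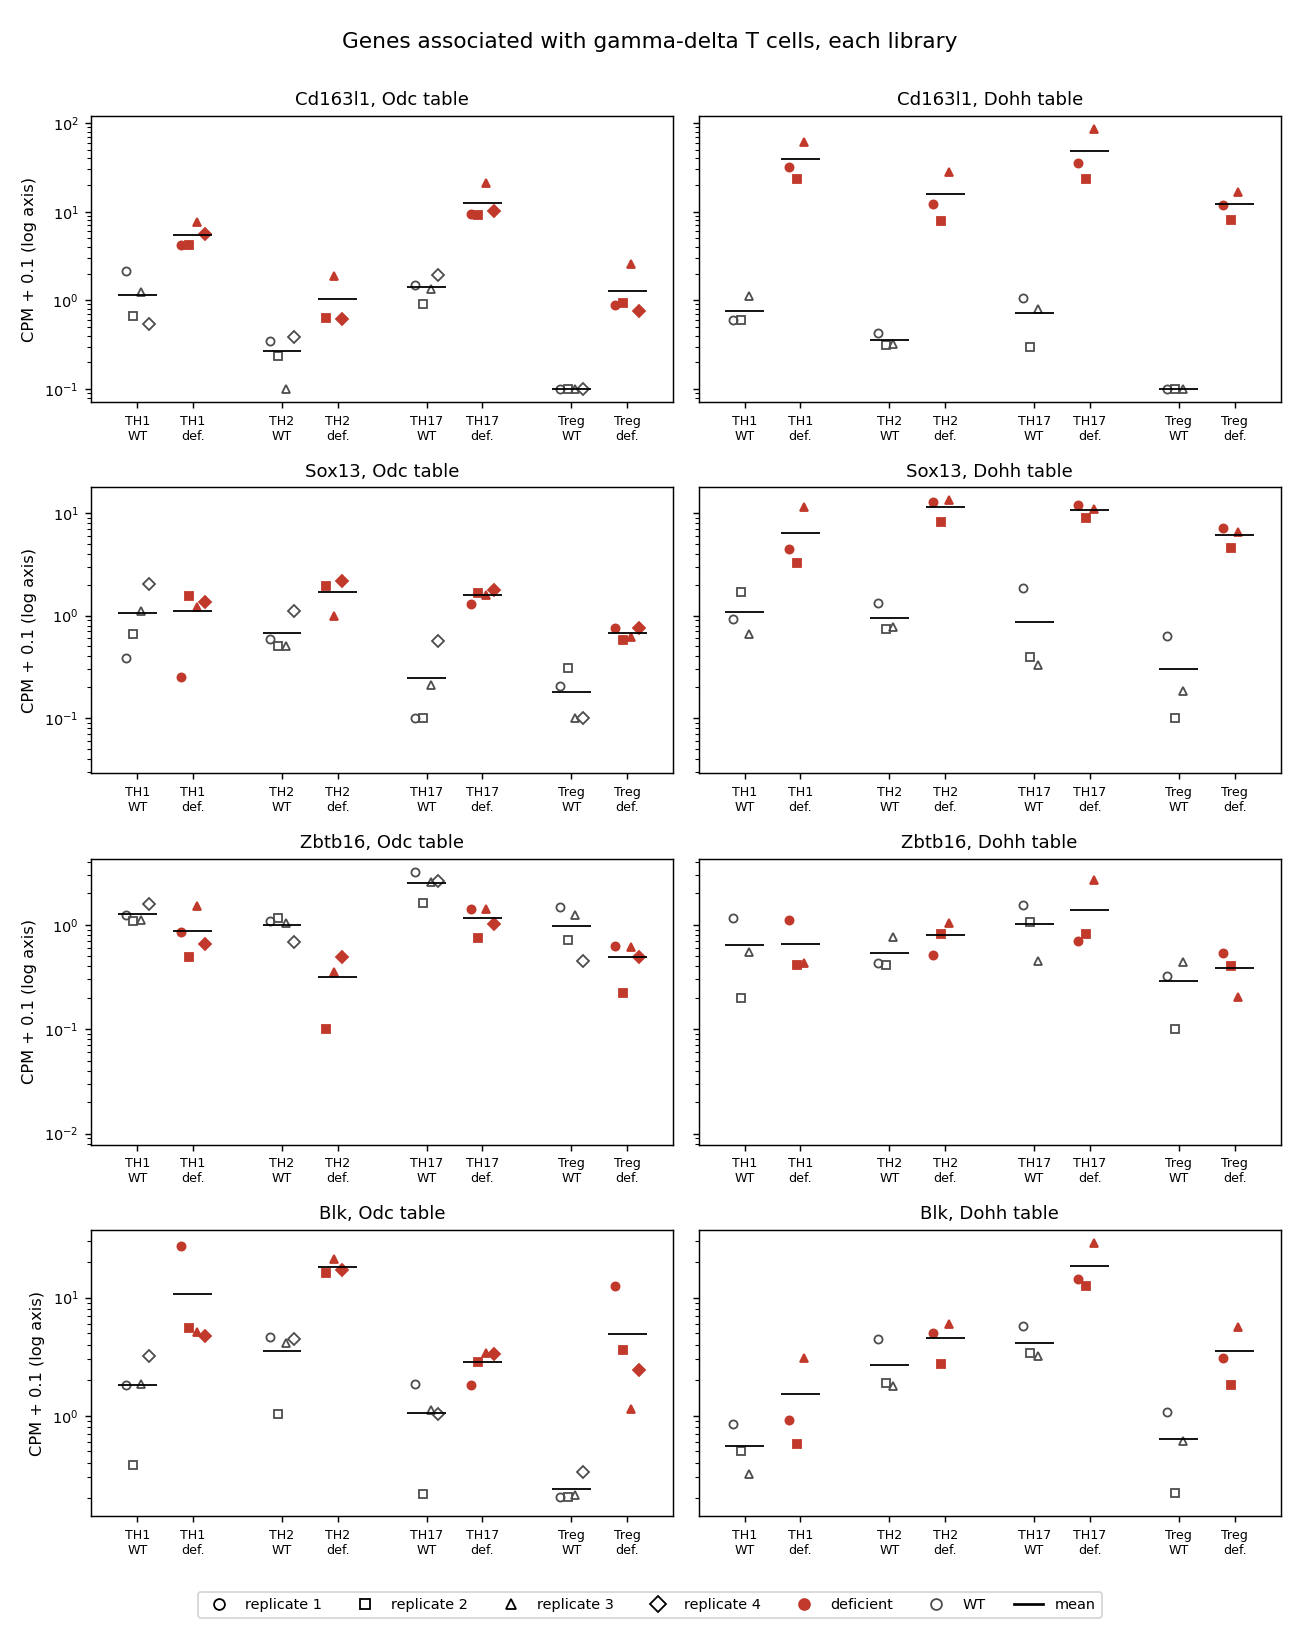
CPM + 0.1 on a log axis (y) of Cd163l1, Sox13, Zbtb16 and Blk in each library, by subset and genotype (x, def. = deficient), with the Odc table on the left and the Dohh table on the right, marker shape for the replicate number and a bar at the group mean. Cd163l1 of deficient libraries lies above WT in every panel, whereas the points of Zbtb16 overlap or, in Odc-/- TH2 and TH17 cells, lie below WT.

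Over the 8 genes and 4 subsets, every Odc-/- library exceeded every WT library in 25 of 32 pairs of gene and subset, and every Dohh-/- library did so in 26 of 32. By subset this held for 6, 6, 6 and 7 genes in TH1, TH2, TH17 and Treg cells of the Odc table, where the same was true of 21.8%, 30.6%, 21.5% and 25.1% of the 13839 genes tested. In the Dohh table it held for 6, 6, 7 and 7 genes, where the same was true of 23.7%, 31.9%, 29.9% and 34.3% of 13897 genes. The genes were chosen on this contrast, so nothing is read from these counts. The reverse, every deficient library below every WT library, occurred in 2 pairs, both of Zbtb16 in the Odc table, and in none of the Dohh table. The constant regions and Cd163l1 exceeded WT in all 4 subsets of both tables. Sox13 did so in 2 subsets of the Odc table and 4 of the Dohh table, and Blk in 3 and 2. Blk in Odc TH17 cells and Sox13 in Odc TH2 cells lay just outside the criterion, and Cd163l1 in Odc TH2 cells, with a highest WT value of 0.291 CPM against a lowest Odc-/- value of 0.516 CPM, lay just inside it. The Odc-/- and Dohh-/- cultures had separate controls and were not compared with each other by a test.

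Levels of different genes were compared per length, as CPM per kilobase of annotated exon. In WT libraries of the Odc table, median levels per kilobase were 9.12 for Tcrg-C2, 3.94 for Tcrg-C4, 3.43 for Trdc and 2.47 for Tcrg-C1, and 0.361 for Blk, 0.210 for Zbtb16, 0.0954 for Cd163l1 and 0.0798 for Sox13. The constant regions were thus the most abundant of the genes in WT cells, ahead of the transcription factors and the receptor Cd163l1. In Dohh-/- libraries the medians per kilobase were 229 for Tcrg-C2, 166 for Tcrg-C4, 129 for Tcrg-C1, 119 for Trdc, 6.06 for Cd163l1, 1.95 for Sox13, 1.47 for Blk and 0.0994 for Zbtb16. In these cells the delta constant region and each gamma constant region had medians of the same order per length.

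WT subsets were then compared with each other, a contrast that was not used to choose the genes. In the Odc table, 6 of the 8 genes differed among the 4 WT subsets by edgeR's quasi-likelihood F-test (Benjamini-Hochberg adjusted p below 0.05 over all genes tested), where 71.1% of all genes tested did. Among WT libraries of the Dohh table, 2 of 8 did, where 40.1% of all genes did. This count was not stable, as it was 1 of 8 in most of the fits that left out 1 library. These counts include Sox13 in the Odc table and Cd163l1 in the Dohh table, which had 0 to 13 and 0 to 12 reads per WT library, were not kept in a fit of WT libraries alone and were tested only because the deficient libraries also entered the filter on low counts. Of the 7 genes kept in each table, 5 and 1 differed. With the replicate number as a block in a fit of WT libraries alone, 7 of 7 and 3 of 7 differed, where 84.4% and 75.2% of all genes did.

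Trdc in WT cells of the Odc table had its highest mean in TH17 cells (21.3 CPM), then TH1 (15.7 CPM), TH2 (13.4 CPM) and Treg cells (10.2 CPM), with an edgeR adjusted p of 0.00638. No pair of neighbours in this order passed in this fit, and TH17 cells differed from Treg cells by 1.07 ± 0.27 on the log2 scale (edgeR adjusted p = 0.00227). WT libraries of this table with the same replicate number deviated together across subsets, and with this number as a block in a fit of WT libraries alone the neighbours TH17 and TH1 (0.41 ± 0.13, edgeR adjusted p = 0.0127) and TH2 and Treg (0.40 ± 0.14, edgeR adjusted p = 0.0186) differed, whereas TH1 and TH2 did not pass (edgeR adjusted p = 0.208). Among WT cells of the Dohh set, Trdc means were 26.9 CPM in TH17, 25.4 CPM in TH2, 24.4 CPM in TH1 and 20.7 CPM in Treg cells, and the F-test did not call a difference (edgeR adjusted p = 0.685). The order of Trdc among WT subsets was therefore not resolved in the Dohh table.

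Among the gamma constant regions of the Odc table, Tcrg-C1 differed between WT subsets (edgeR adjusted p = 0.0478), with means of 4.56, 2.99, 1.93 and 1.89 CPM in TH17, TH1, Treg and TH2 cells. Tcrg-C4 (edgeR adjusted p = 0.0974) and Tcrg-C2 (edgeR adjusted p = 0.247) did not pass. With the replicate block in a fit of WT libraries alone both passed, at edgeR adjusted p = 0.000276 for Tcrg-C4 and 0.000611 for Tcrg-C2. The neighbours that differed in that fit were TH17 and TH1 and also TH1 and Treg for Tcrg-C1, TH17 and TH2 for Tcrg-C2, and TH17 and TH1 and also Treg and TH2 for Tcrg-C4. Among the WT libraries of the Dohh set, none of the constant regions passed, with edgeR adjusted p of 0.0987 for Tcrg-C1, 0.0952 for Tcrg-C2 and 0.238 for Tcrg-C4. With the replicate block in a fit of these WT libraries alone, Tcrg-C1 (edgeR adjusted p = 0.0157) and Tcrg-C2 (edgeR adjusted p = 0.00908) passed, and Tcrg-C4 (edgeR adjusted p = 0.0855) and Trdc (edgeR adjusted p = 0.109) did not, where same-numbered WT libraries had Pearson's r from 0.00521 to 0.314 over 18 pairs.

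Cd163l1 was highest in WT TH17 and TH1 cells and at 0 in WT Treg cells of both tables, and the difference among WT subsets passed in the Odc table (edgeR adjusted p = 2.14e-05). Its means were 1.33, 1.05, 0.167 and 0 CPM in TH17, TH1, TH2 and Treg cells of the Odc table, where TH1 and TH2 cells were neighbours that differed (edgeR adjusted p = 0.0160). For WT cells of the Dohh set, its means were 0.668, 0.618, 0.255 and 0 CPM in TH1, TH17, TH2 and Treg cells, which are given without a test for the few reads behind them. Cd163l1 thus had the same subset at 0 in both sets of WT controls.

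Blk was highest in WT TH2 cells of the Odc table, at 3.46 CPM, and lowest in Treg cells, at 0.139 CPM (edgeR adjusted p = 0.00248). In the Dohh table it was highest in WT TH17 cells, at 4.03 CPM, and TH2 cells, at 2.61 CPM, which exceeded Treg cells, at 0.537 CPM, as neighbours in the order (edgeR adjusted p = 0.0168 for TH2 against Treg, and 0.000954 over all subsets). The order of TH2 and TH17 cells thus differed between the tables, which was not tested. Sox13 means stood in the order TH1, TH2, TH17 and Treg in the Odc table, from 0.948 to 0.0780 CPM, which is given without a test, and its TH17 and Treg means were below the level of 3 counts. Zbtb16 was highest in WT TH17 cells of the Odc table, at 2.42 CPM, above the next subset, TH1, at 1.16 CPM (edgeR adjusted p = 0.0293, and 0.00272 over all subsets). Neither Sox13 (edgeR adjusted p = 0.175) nor Zbtb16 (edgeR adjusted p = 0.203) passed between the WT subsets of the Dohh table. With the replicate block in a fit of WT libraries alone, all neighbours in the order of Blk differed among Odc controls, and among Dohh controls TH2 and Treg cells of Blk were the only neighbours that differed over the 7 genes kept.

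Segments of the gamma and delta loci were examined next, as genes of the same receptors that had not served to choose the members. The list held 34 genes, Tcrg-C3 among them, of which 29 were in the tables, and 16 of these had enough reads for the Odc fit and 19 for the Dohh fit. Calls required more than 1 unit of log2 difference in either direction together with an edgeR adjusted p below 0.05. In the Odc table, 10 were higher and 2 lower in Odc-/- TH1 cells, 6 and 3 in TH2, 12 and 2 in TH17, and 12 and 3 in Treg cells, where 10.2%, 11.5%, 8.35% and 13.9% of all genes tested were called higher and 11.3%, 13.6%, 7.21% and 10.1% lower. These 50 calls fell to 29 in a test against a 2-fold change. For the Dohh deletion, 14 were higher and 3 lower in TH1, 12 and 3 in TH2, 14 and 3 in TH17, and 15 and 3 in Treg cells, where 14.8%, 14.3%, 17.3% and 17.5% of all genes were called higher and 14.2%, 11.6%, 14.1% and 15.2% lower. Median log2 differences of the segments ran from 1.13 to 2.48 for Odc-/- and from 2.78 to 4.22 for Dohh-/- cells, or from 1.003 and 2.22 upwards with genes at 0 in a group set to their bound, against medians between -0.0019 and 0.0731 and between 0.0110 and 0.0250 for all genes tested. Of the segments tested, 8 in the Odc and 8 in the Dohh table passed the filter on low counts only through the deficient libraries and had to differ, so the counts and medians above are no support for a rise. Among the 8 segments of the Odc table that WT libraries alone kept, 3, 2, 4 and 4 were called higher and 2, 3, 2 and 3 lower in TH1, TH2, TH17 and Treg cells, and 7, 6, 6 and 7 were higher and 3 lower in each among 11 of the Dohh table.

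Tcrg-V1, Tcrg-V4, Trdv4 and Trdv5 had a call of higher in all 8 comparisons, where Trdv4 in both tables and Tcrg-V1 in the Odc table passed the filter only through the deficient libraries. Tcrg-V1, a gamma variable segment that is joined to Tcrg-C4, stood in Treg cells at 0 to 0.806 CPM in WT and 5.21 to 10.7 CPM in Odc-/- libraries, a log2 difference of 4.68 ± 0.50, which is given without a test. In Treg cells of the Dohh table it stood at 0.729 to 1.11 CPM in WT and 22.9 to 40.3 CPM in Dohh-/- libraries, a difference of 5.08 ± 0.70 (edgeR adjusted p = 5.47e-06). Its constant region Tcrg-C4 was higher in the same libraries. Tcrg-V4, which is joined to Tcrg-C1, stood in TH17 cells at 1.40 to 3.02 CPM in WT and 11.7 to 25.2 CPM in Odc-/- libraries (log2 difference 3.08 ± 0.36, edgeR adjusted p = 4.25e-07). In TH17 cells of the Dohh table Tcrg-V4 stood at 1.75 to 3.47 CPM in WT and 1.81 to 38.0 CPM in Dohh-/- libraries (log2 difference 3.32 ± 0.72, edgeR adjusted p = 0.00079, and 3.87 ± 0.32 without the pair of libraries). The lowest Dohh-/- TH17 value, within the WT range, came from replicate 3, a library that stood apart, and the same library was within the WT range of Tcrg-V1 and below that of Trdv5.

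Trdv5, a delta variable segment, stood in Treg cells at 0.516 to 1.05 CPM in WT and 7.50 to 12.8 CPM in Odc-/- libraries (log2 difference 3.64 ± 0.26, edgeR adjusted p = 2.87e-11) and at 0.729 to 2.03 CPM in WT and 27.5 to 53.2 CPM in Dohh-/- libraries (log2 difference 4.82 ± 0.86, edgeR adjusted p = 0.000122). Of its exons, 47.3% overlap Trdc on the other strand, so its counts cannot be told apart from those of Trdc if strand was not used. Trdv4 stood near the floor, with 0 to 2 reads in each WT library of the Odc table and 0 to 12 reads in each Odc-/- library, and with 0 to 5 and 0 to 48 reads in the Dohh table. Its calls therefore rest on few reads, and no fold is given. Without the pair of Dohh-/- libraries that stood apart, all 4 segments kept their calls in the 4 Dohh comparisons, and 15 segments were called higher and 3 lower in each. WT libraries alone kept 11 of the 19 segments tested, Trdv4 not among them, and the others had to differ. These counts are therefore no support for a rise, and the share of all genes called in this fit is not given.

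The segments that fell were Trav14d-3-dv8, Trav6-7-dv9 and Trav4-4-dv10, which can be joined to either the alpha or the delta constant region. Trav6-7-dv9 fell in all 8 comparisons, by 1.29 ± 0.33 in Odc-/- Treg cells (edgeR adjusted p = 0.00143) and by 2.95 ± 0.58 in Dohh-/- Treg cells (edgeR adjusted p = 0.00027) on the log2 scale. Trav14d-3-dv8 and Trav4-4-dv10 fell in 7 of 8. Of the other segments shared by both loci, Trav15-2-dv6-2 was called higher in all 8, Trav13-4-dv7 in 6 and Trav15-1-dv6-1 in 5, and Trav21-dv12 in none, where Trav15-2-dv6-2 in both tables and Trav15-1-dv6-1 in the Odc table passed the filter only through the deficient libraries. These were named after their values were seen.

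In each library, reads on variable segments were counted per 100 reads on the constant regions of the same chain, for all 4 receptor chains. This measure was chosen after the data had been seen. It counted 6 variable genes for the delta chain, 6 for gamma, 128 for alpha and 35 for beta. Segments shared by the alpha and delta loci were therefore not all counted for delta, and their part in the delta and alpha ratios was not tested. For the delta chain it ranged from 10.3 to 34.9 (median 20.1) in WT and from 6.19 to 12.3 (median 9.84) in Odc-/- libraries. Among the Dohh cultures, it ranged from 10.3 to 27.8 (median 21.3) in WT and from 7.91 to 16.6 (median 9.94) in 10 Dohh-/- libraries, and was 2.76 and 0.813 in TH1 replicate 2 and TH17 replicate 3. Within subsets, every deficient library lay below every WT library in TH2, TH17 and Treg cells of both tables, and the groups overlapped in TH1 cells. Over all subsets, the ratio of the gamma chain was 4.63 to 22.1 in WT and 3.87 to 13.0 in Odc-/- libraries, and 5 to 28.5 in WT and 5.48 to 15.4 in 10 Dohh-/- libraries. Every deficient library lay below every WT library in TH2 and TH17 cells of the Odc table and in TH17 and Treg cells of the Dohh table, and the other groups overlapped. The ratio depends on which segments the annotation holds. Tcrg-V2 could not be matched in the count tables and is missing from the gamma ratio, whereas reads on Tcrg-C2 are in its denominator. The share of Tcrg-C2 itself differed between some groups, and its part in the gamma ratio was not tested.

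The chains of alpha-beta T cells were measured in the same way. For the beta chain the ratio was 43.5 to 66.1 in WT and 27.1 to 49.3 in Odc-/- libraries, and 40.01 to 54.2 in WT and 8.26 to 17.3 in 10 Dohh-/- libraries. Beta constant-region reads of Dohh-/- cells were thus accompanied by few beta variable-segment reads, without overlap with WT. For the alpha chain the ratio was 22.1 to 30.2 in WT and 16.7 to 26.3 in Odc-/- libraries, and 24.2 to 31.2 in WT and 27.7 to 61.7 in 10 Dohh-/- libraries. Within subsets it was separate in TH1 and TH2 cells of the Odc table, lower in Odc-/- cells, and in TH2 and Treg cells of the Dohh table, higher in Dohh-/- cells, and the beta ratio was lower without overlap in every subset of both tables. The pair of libraries that stood apart had the lowest values for each chain, 8.77 and 5.43 for alpha, 3.79 and 2.89 for beta, and 2.49 and 0.985 for gamma.

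**Figure D4:**
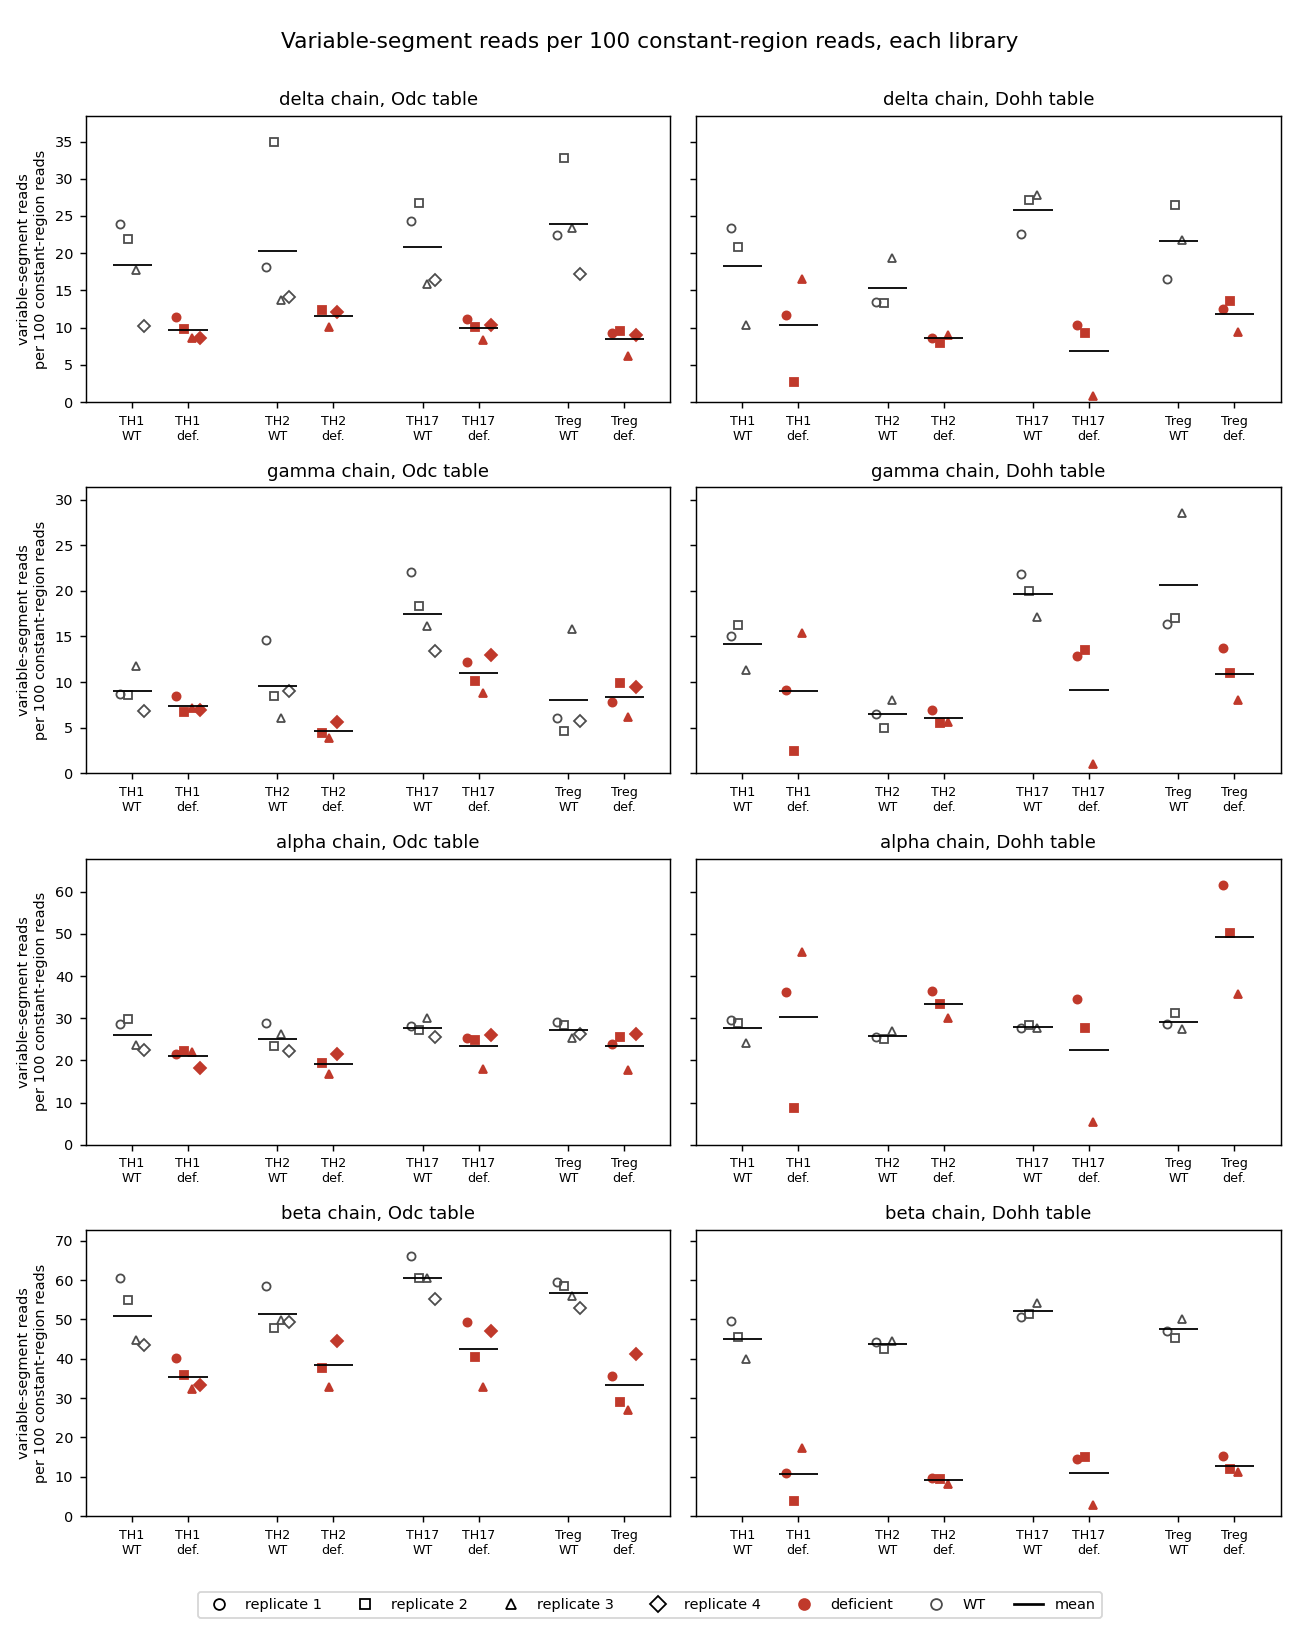
Variable-segment reads per 100 constant-region reads (y) of the delta, gamma, alpha and beta chains in each library, by subset and genotype (x, def. = deficient), with the Odc table on the left and the Dohh table on the right and a bar at the group mean. Delta values of deficient libraries lie at 6.19 to 16.6 apart from Dohh-/- TH1 replicate 2 and TH17 replicate 3, which are the lowest points in all 4 panels of the Dohh table.

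A list of 35 other genes of gamma-delta T cell programs, all tested, moved in both directions. In the Odc table, 8, 7, 12 and 15 genes were called higher and 5, 9, 6 and 4 lower in TH1, TH2, TH17 and Treg cells, with median log2 differences from -0.02 to 0.44, where 10.2%, 11.5%, 8.35% and 13.9% of all genes tested were called higher and 11.3%, 13.6%, 7.21% and 10.1% lower. These 66 calls fell to 35 in a test against a 2-fold change. With Dohh deleted, 18, 19, 18 and 20 were called higher and 5, 3, 4 and 7 lower, with medians from 1.07 to 2.10, where 14.3% to 17.5% of all genes were called higher and 11.6% to 15.2% lower, and without the pair of libraries 19 and 18 were higher and 5 and 4 lower in TH1 and TH17 cells. Ifng, which encodes the cytokine IFN-γ, rose in all 8 comparisons and stood in TH2 cells at 3.60 to 12.7 CPM in WT and 64.9 to 105 CPM in Odc-/- libraries (log2 difference 3.61 ± 0.52, edgeR adjusted p = 4.82e-06) and at 2.54 to 3.70 CPM in WT and 379 to 1498 CPM in Dohh-/- libraries (7.99 ± 0.59, edgeR adjusted p = 4.19e-09). Eomes, a transcription factor of cytotoxic lymphocytes, rose in all 8 comparisons, for example by 3.75 ± 0.37 in Odc-/- TH1 cells (edgeR adjusted p = 7.88e-08) and 3.96 ± 0.58 in Dohh-/- Treg cells (edgeR adjusted p = 9.52e-06). Both are also expressed by TH1, CD8+ T and NK cells.

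Xcl1, a chemokine of cytotoxic and gamma-delta T cells, rose in 7 of 8 comparisons and stood in Treg cells at 9.09 to 20.3 CPM in WT and 347 to 797 CPM in Odc-/- libraries (log2 difference 5.51 ± 0.70, edgeR adjusted p = 5.63e-07). In Odc-/- TH2 cells it did not pass (4.18 ± 2.10, edgeR adjusted p = 0.0896). S100a4, a calcium-binding protein of activated and memory-like T cells, rose in 7 of 8, by 5.90 ± 0.81 in Dohh-/- TH17 cells (edgeR adjusted p = 1.31e-05, and 4.21 without the pair of libraries), and in Odc-/- TH1 cells was 0.80 ± 0.50 (edgeR adjusted p = 0.175). Maf and Rora, transcription factors found in T cells that make IL-17, were never called higher and were named after their values were seen. Maf was called lower in 6 comparisons and Rora in 5, with Maf at -2.96 ± 0.35 in Dohh-/- TH17 cells (edgeR adjusted p = 1.36e-06, and -2.66 without the pair). Il17a rose in 5 and fell in 2, with -1.67 ± 0.36 in Odc-/- TH17 cells (edgeR adjusted p = 0.000555) and 2.90 ± 0.51 in Dohh-/- TH17 cells (edgeR adjusted p = 0.000121, and 3.15 without the pair). 5830411N06Rik, a scavenger receptor gene, rose in 7 of 8, and Il22 in 6, and Cxcr6, Tbx21 and Klrk1 were also called higher in 7. Il17a and these 5 genes were likewise named after their values were seen.

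Genes of the alpha-beta receptor and of T cell identity, a list of 20, were called lower more often than higher in both tables. In the Odc table none was called higher and 1, 6, 4 and 3 were called lower in TH1, TH2, TH17 and Treg cells, with medians from -0.80 to -0.24, where 11.3%, 13.6%, 7.21% and 10.1% of all genes were called lower, and the 14 calls fell to 4 in a test against a 2-fold change. In the Dohh table, 8, 10, 9 and 8 were called lower and 1 higher in each subset, which was Thy1, with medians from -1.01 to -0.58, where 11.6% to 15.2% of all genes were called lower, and without the pair of libraries none was higher in TH1 cells while the other counts stayed as they were. Cd4, the coreceptor for MHC class II, fell in 5 comparisons, by 4.65 ± 0.27 in Dohh-/- Treg cells (edgeR adjusted p = 5.2e-11) and by 1.01 ± 0.26 in Odc-/- TH2 cells (edgeR adjusted p = 0.00168). Zbtb7b, which encodes ThPOK, the factor of CD4 lineage choice, fell in 7, Cd28 in 6 and Cd2 in 5. Trac was called lower in the 4 Dohh comparisons, at -2.31 ± 0.25 in Treg cells (edgeR adjusted p = 2.23e-07), and in Odc-/- cells the differences ran from -0.98 to -0.39, short of the fold threshold. Trbc1 and Trbc2, the beta constant regions, were called in no comparison.

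Markers of other cells moved in the same cultures. Beside the counts of each marker list, 8.35% to 13.9% of all genes were called higher and 7.21% to 13.6% lower in the Odc table, and 14.3% to 17.5% and 11.6% to 15.2% in the Dohh table. WT libraries alone kept 9 of the 14 CD8 T cell and NK cell markers tested, 9 of 12 innate-like, 3 of 9 basophil and mast cell, 6 of 8 myeloid and 10 of 14 B cell markers in the Odc table, and 7 of 10, 10 of 12, 2 of 10, 5 of 9 and 11 of 11 in the Dohh table, and the others passed the filter only through deficient libraries. Those others had to differ, so the counts and medians of lists that hold them are no support for a rise. Of 14 CD8 T cell and NK cell markers, all tested in the Odc table, 9, 8, 10 and 13 were called higher and none lower in TH1, TH2, TH17 and Treg cells, with medians from 1.35 to 3.32 and summed levels of 30.2 to 219 CPM in WT and 166 to 463 CPM in Odc-/- libraries. For the Dohh deletion, 7, 6, 9 and 8 of 10 tested were higher and 1, 1, 0 and 0 lower, with medians from 1.90 to 4.47 and sums of 26.8 to 117 CPM in WT and 319 to 1888 CPM in Dohh-/- libraries. Ncr1 was at 0 in WT TH17 cells of both tables, and in the Dohh table Klrb1c and Klra8 were at 0 there and Klra8 and Klra9 in WT Treg cells. The receptor gene Klra3 and the perforin gene Prf1 were called higher in 8 comparisons, Klri2 in 7 and Klrb1c in 6, and NK receptors are also carried by some gamma-delta T cells. Klrb1c in both tables and Klra3 in the Dohh table passed the filter only through deficient libraries, so those calls are no support for a rise. Of the genes that encode the CD8 coreceptor, Cd8a was called higher in 5 comparisons, whereas Cd8b1 was called higher in none and lower in 2. These were named after their values were seen. Of 18 innate-like T cell and innate lymphoid markers, 12 were tested in each table, and 8, 8, 7 and 7 were higher and 0, 1, 0 and 1 lower in the Odc table, with medians from 1.12 to 2.05 and sums of 144 to 949 CPM in WT and 254 to 837 CPM in Odc-/- libraries. Among the Dohh cultures, 7, 7, 7 and 6 were higher and 4 lower in each subset, with medians from 1.61 to 2.74 and sums of 141 to 489 CPM in WT and 532 to 2053 CPM in Dohh-/- libraries. Il1rl1, Klrg1, Ly6c2 and Fcer1g led this list, and Klrg1 passed the filter in both tables only through deficient libraries. Trav11d, a variable segment of the invariant NKT cell receptor, was at 0 in every group, WT included. Its joining segment Traj18 was at 0 in every Dohh-/- group. Neither segment had enough reads to be tested, so nothing is read from these zeros.

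Basophil and mast cell markers were called higher in nearly every comparison, with 8, 8, 9 and 8 of 9 tested in the Odc table and all 10 in each subset of the Dohh table called higher and none lower, medians from 3.41 to 4.07 and from 6.34 to 8.20, and sums of 2.89 to 18.7 CPM in WT and 15.2 to 314 CPM in Odc-/- libraries and of 2.83 to 5.53 CPM in WT and 65.6 to 1191 CPM in Dohh-/- libraries. Most of these markers had passed the filter only through deficient libraries, so their counts and medians are no support for a rise. Prss34, Cpa3, Ms4a2 and Fcer1a led this list, and among them Ms4a2 was at 0 in WT TH1 cells and Fcer1a in WT TH2 cells of the Odc table, and Prss34 in WT TH1 cells and Ms4a2 in WT TH2 cells of the Dohh table. Of the myeloid markers, 1, 1, 7 and 6 of 8 tested were higher and 1, 1, 0 and 0 lower in the Odc table, with medians from 1.92 to 3.08 and sums of 7.54 to 51.8 CPM in WT and 8.25 to 775 CPM in Odc-/- libraries. With Dohh deleted, 3, 8, 9 and 8 of 9 were higher, with medians from 5.68 to 7.01 and sums of 20.9 to 41.2 CPM in WT and 6.43 to 11663 CPM in Dohh-/- libraries. Itgam, of whose exons 68.7% overlap another annotated gene on the same strand, was at 0 in every group of the Dohh table. Lyz2, Cd14, S100a9 and Mpo led the list, and S100a9 and Mpo were at 0 in WT TH1 cells of both tables. Mpo in both tables and Cd14 in the Dohh table passed the filter only through deficient libraries. With genes at 0 in a group set to their bound, the medians began at 3.23 and 6.10 for basophil and mast cell markers and at 0.65 and 2.94 for myeloid markers, those of CD8 and NK markers at 1.34 and 1.90 and those of innate-like markers at 1.12 and 1.15, and those of B cell markers in the Dohh table ran from -0.47 to 0. Without the pair of libraries, the number of myeloid markers called higher in Dohh-/- TH1 cells went from 3 to 0 and their median from 5.68 to 0, and the number called higher in TH17 cells went from 9 to 8. Basophil and mast cell markers went from 10 to 9 in TH1 cells, CD8 T cell and NK cell markers from 9 to 8 in TH17 cells, B cell markers in TH17 cells from 2 higher and 1 lower to 1 and 2, and innate-like markers in Treg cells from 6 to 7. Over the WT libraries, Trdc had a Pearson's r of 0.76 with the summed CD8 T cell and NK cell markers and of 0.72 with the summed basophil and mast cell markers in the Odc table (n = 16), and of 0.35 and 0.0096 in the Dohh table (n = 12). Over the deficient libraries the values were 0.012 and 0.40 for Odc-/- (n = 15) and -0.32 and 0.050 for Dohh-/- (n = 12), where the points of a subset share culture conditions. The part of these cells in the member genes' levels, among WT subsets too, was not tested.

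B cell markers bear on Blk in particular. In the Odc table, 13, 10, 2 and 13 of 14 were called higher and 0, 0, 1 and 0 lower in TH1, TH2, TH17 and Treg cells, where 10.2%, 11.5%, 8.35% and 13.9% of all genes were called higher, with medians from 1.36 to 3.60 and sums of 65.4 to 302 CPM in WT and 121 to 1525 CPM in Odc-/- libraries. In the Dohh table, 1, 0, 2 and 4 of 11 tested were higher and 2, 1, 1 and 1 lower, where 14.8%, 14.3%, 17.3% and 17.5% of all genes were higher and 14.2%, 11.6%, 14.1% and 15.2% lower, with medians from -1.16 to -0.09 and sums of 65.8 to 309 CPM in WT and 15.8 to 861 CPM in Dohh-/- libraries, and Pax5 was at 0 in Dohh-/- Treg cells. Cd79b was called higher in 7 comparisons, Blnk in 6 and Cd22 in 4, and Ebf1 lower in 5. The summed CPM of Cd79a, Ms4a1 and Pax5, 3 genes chosen after the data had been seen, was 1.03 to 28.8 in WT and 1.99 to 187 in Odc-/- libraries, and 0.607 to 12.3 in WT and 0.110 to 15.6 in Dohh-/- libraries. Blk followed this sum in the Odc table, with Pearson's r of log2(CPM + 1) of 0.93 over 16 WT and 0.87 over 15 Odc-/- libraries, whereas Trdc had an r of 0.26 with it over the WT and of -0.83 over the Odc-/- libraries. No r with the sum over the whole list is given. In WT cells of the Odc table that whole sum was 65.4 to 145.5, 127 to 302, 96.5 to 119 and 233 to 271 CPM in TH1, TH2, TH17 and Treg cells. Blk was 0.284 to 3.11, 0.932 to 4.52, 0.117 to 1.74 and 0.103 to 0.233 CPM in the same order. Within the Dohh table, Blk had an r of 0.76 with the sum of the 3 genes over 12 WT and of 0.032 over 12 Dohh-/- libraries (0.16 over 10 without the pair). Trdc there had an r of 0.42 with the sum over the WT and of -0.63 over the Dohh-/- libraries (-0.67 without the pair). In Dohh-/- TH17 cells Blk reached 12.4 to 28.8 CPM while this sum was 1.06 to 2.33 CPM, against Blk at 3.12 to 5.65 CPM and a sum of 1.85 to 4.52 CPM in WT. The sum over the whole list of B cell markers was higher in the same libraries, at 400 to 472 CPM in Dohh-/- against 267 to 280 CPM in WT TH17 cells, without overlap. Most listed markers did not rise there, with 2 of 11 called higher, 1 lower and a median log2 difference of -0.47. In WT Treg cells of the Dohh table the whole sum was 297 to 309 CPM while the 3 genes summed to 0.607 to 1.28 CPM. The part of B cells in the level of Blk was not tested.

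**Figure D5:**
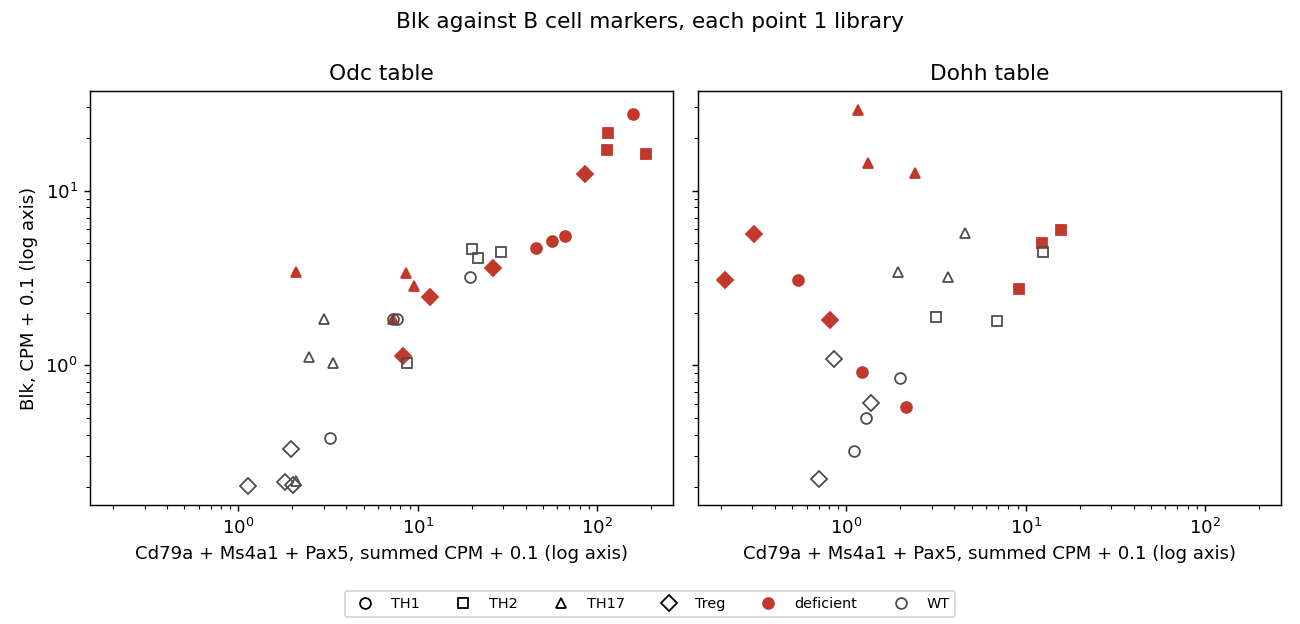
Blk against the sum of Cd79a, Ms4a1 and Pax5, both in CPM + 0.1 on log axes, 1 point per library, with the Odc table on the left and the Dohh table on the right, marker shape for the subset and filled points for deficient libraries. Points of the Odc table lie along a rising line for both genotypes, whereas the Dohh-/- TH17 points, with Blk at 12.4 to 28.8 CPM, lie above the WT TH17 points, with the sum of the 3 genes at 1.06 to 2.33 CPM against 1.85 to 4.52 CPM in WT.

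The genes whose pattern was most like that of Trdc over all libraries, by the smaller of Pearson's r in the 2 tables on log2 CPM (31 and 24 libraries, 12924 genes tested in both), were Cd160 (r = 0.942), Fcer1g (0.940), Cr1l (0.936), Gas7 (0.928) and Snapc5 (0.927). Among the members, Tcrg-C1 reached 0.986, Tcrg-C4 0.978, Tcrg-C2 0.966, Cd163l1 0.733, Sox13 0.559 and Blk 0.510, and Zbtb16 had -0.335. These values carry the difference between genotypes, on which the members were chosen. For deviations from the group means, which leave genotype and subset out, the smaller r was 0.660 for Tcrg-C1, 0.590 for Tcrg-C2, 0.493 for Sox13, 0.439 for Tcrg-C4, 0.249 for Blk, 0.0117 for Cd163l1 and -0.0631 for Zbtb16. The deviations of Trdc and of the gamma constant regions were thus related over all groups together but not in each group, since in Dohh-/- Treg replicates 1, 2 and 3 Trdc was 675, 606 and 492 CPM while Tcrg-C4 was 277, 291 and 305 CPM. Outside the members, Hps3 (0.670), Spry2 (0.662), Klra3 (0.655), Tbx21 (0.623) and Klf16 (0.578) came closest on this measure. In the Dohh table, Klra3 passed the filter on low counts only through deficient libraries.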

How the data were processed

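Stranded mRNA libraries were sequenced, and per the labels and the submitters' processing notes the authors used STAR, featureCounts, DESeq2 and deepTools with build mm10, and the versions and the strand setting of the counting are not given in the sources used here. The authors deposited raw read counts per gene in 1 table for each deletion, and 55 of 56 samples had a column. Replicates were not pooled, and the sample without a column, Odc-/- TH2 replicate 1, was not analysed here.

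Counts were analysed with edgeR 4.0.16 in R 4.3.3 (TMM, filterByExpr with a minimum count of 10, robust quasi-likelihood fit, 1 mean per group), each table apart, with Benjamini-Hochberg adjustment over all genes tested. Calls needed an absolute log2 fold change above 1 and an adjusted p below 0.05. The members and the gene lists were chosen with earlier results of these data known. In each list, the 4 genes with the most calls in 1 direction (ties by the larger absolute mean log2 difference) were named by rule, as were the 5 genes most like Trdc, and other genes are said to have been named after their values were seen. WT libraries of the Odc table with the same replicate number deviated together across subsets (Pearson's r from 0.206 to 0.576 over 24 pairs), and WT and Odc-/- libraries of a subset did not (-0.0858 to 0.196 over 15 pairs). Alternatives were other scalings, filters, prior counts, fits, DESeq2 1.42.0 and leaving out each library. The fit was tested on simulated counts. Total counts per library limit the precision as given beside the floor of 3 counts, and gene positions, exon lengths and sequences came from the GENCODE annotation and genome of mm10, in which 47224 of 47937 gene IDs matched. Some genes of the lists are not reported here by name.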

Additional observations from a re-analysis of the deposited data

Results flagged for a closer look

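In the Odc table, 11 of 84 groups of 4 libraries had a library far from the other 3 (Dixon's test), where chance flags about 1 in 20 groups. Blk accounted for 3 of them, with Odc-/- TH1 replicate 1 at 27.3 CPM, WT TH2 replicate 2 at 0.932 CPM and WT Treg replicate 4 at 0.233 CPM. Trdc was low in the same Odc-/- TH1 replicate 1, at 57.8 CPM. Cd163l1 was high in replicate 3 of Odc-/- TH17 cells, at 21.3 CPM, and of Odc-/- Treg cells, at 2.46 CPM. Tcrg-C4 stood at 9.46 CPM in WT TH1 replicate 4, and Sox13 at 1.02 CPM in WT TH2 replicate 4.

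Alpha variable-segment reads per 100 constant-region reads were low in Odc-/- TH1 replicate 4 (18.2) and Odc-/- TH17 replicate 3 (18.0). The same measure for the gamma chain was high in WT Treg replicate 3 (15.9).

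Klri2, an NK receptor gene, was higher in every Odc-/- library than in every WT library in TH1, TH2 and Treg cells, with log2 differences of 1.62, 2.02 and 2.15, and lower in every Odc-/- library in TH17 cells, at -0.68. The difference between subsets was not tested.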

How the results depend on the processing

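Of 340 alternative counts, 319 stayed within 1.5 times. Of the 64 log2 differences of members between deficient and WT cells, 4 changed sign under some alternative, each with few reads. Sox13 in TH1 cells of the Odc table went from 0.10 to between -0.22 and -0.026 without WT replicate 1 or 2 or Odc-/- replicate 2 or 4. Zbtb16 in the Dohh table went from 0.05 to between -0.74 and -0.08 in TH1 cells without WT replicate 2 or 3 or Dohh-/- replicate 1, from 0.38 to -0.48 in TH17 cells without Dohh-/- replicate 3, and from 0.43 to between -0.05 and -0.0015 in Treg cells without WT replicate 2 or Dohh-/- replicate 1. Calls of gamma-delta receptor segments in the Odc table fell from 50 to 32 with a mean count of at least 10, to 29 in a test against a 2-fold change and to 33 with only the groups compared. Under the test against a 2-fold change, calls of program genes fell from 66 to 35 and those of alpha-beta and identity genes from 14 to 4 in the Odc table. The number of members that differed between WT subsets of the Dohh table was 2, and 1 without a low-count filter and with only the groups compared.

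Leaving out 1 library gave 25 to 26 and 26 to 27 pairs of member and subset above WT in the Odc and Dohh tables, 45 to 52 and 63 to 70 segment calls, 64 to 70 and 93 to 95 program calls, 10 to 17 and 37 to 41 identity calls, and 5 to 7 and 1 to 3 members that differed between WT subsets. The last count was 1 in the Dohh table without any of WT TH1 replicates 1, 2 and 3, WT TH2 replicates 2 and 3, WT TH17 replicates 1 and 3, WT Treg replicates 2 and 3, Dohh-/- TH1 replicates 1 and 2, or replicate 1 of Dohh-/- TH2, TH17 and Treg cells. With the replicate block, 6 and 3 members differed between WT subsets (7 and 3 of 7 in a fit of WT libraries alone), and calls came to 49 and 67 for segments, 66 and 94 for program genes and 11 and 39 for identity genes. Of the deficient libraries, 4 of 15 and 4 of 12 correlated best with the WT library of their own number. Without Dohh-/- TH1 replicate 2 and TH17 replicate 3, a choice made after the data had been seen, segment calls rose from 67 to 72. Depth limited Zbtb16, Sox13 and Cd163l1, which had few reads or none in many WT libraries.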
